A study of Tetranychus urticae with 4 samples.

Results

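The genes described here are 9 intradiol ring-cleavage dioxygenases of the two-spotted spider mite Tetranychus urticae, chosen by their identifiers among the 18020 genes of the deposited count table. Their identifiers place 1 of them on scaffold 1, 2 on scaffold 4, 2 on scaffold 6 and 4 on scaffold 7. The 2 genes on scaffold 6, and tetur07g05930 and tetur07g05940 on scaffold 7, are consecutive identifiers and form 2 adjacent pairs, and the other 5 genes stand alone. The choice went by identifier and not by a measured value, but it was made with earlier results of these data known. RNA came from adult females of the London strain, and the labels name no treatment. Intact females, pooled by 100, gave 3 whole-body libraries. Proterosomas cut from 250 females and pooled gave 1 library. This front section of the mite includes mouthparts, salivary glands and the central nerve mass. An intact body contains its own proterosoma, so the groups compared are a part and the whole that includes it. The labels give neither the age of the females nor their host plant, nor do they say whether the 3 whole-body pools were separate cultures. The p-values therefore rest on a spread between pools that may be technical only.

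Intradiol dioxygenases are iron enzymes that open the aromatic ring of a catechol between its neighbouring hydroxyl groups. Bacteria and fungi use them to break down aromatic compounds, and animals as a rule lack them. Spider mites acquired their genes by horizontal transfer, and the enzymes cleave catechols of the plants that the mites feed on. All 9 genes are listed under this 1 activity, and the files do not say which substrate each enzyme prefers.

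Gene counts summed to between 11630954 and 23647775 reads in the whole-body libraries and to 19667380 reads in the proterosoma library. Levels below are CPM, reads scaled to a common library size after TMM scaling, which corrects library sizes for differences in composition. A count of 0, which allows up to 3 reads, limits a gene to 0.111 to 0.240 CPM in these libraries, a limit that covers counting error only. The depth of whole-body replicate 1 was the highest of the whole-body libraries. None of the identifiers in the count table was found in the reference gene table, so the dissected part could not be checked against tissue markers. Gene lengths were not used here either, so CPM values are compared between libraries within a gene, and divisions of reads among genes describe reads, not levels per length.

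The 9 genes did not share 1 pattern. In the proterosoma library 2 genes rose (tetur04g08620 and tetur07g02040), 4 fell (tetur01g00490, tetur04g00150, tetur06g00450 and tetur06g00460), 2 were tested and not called, and tetur07g06560 had too few reads to be tested. Calls were made at an adjusted p under 0.05 with edgeR's quasi-likelihood test over all 13278 genes that passed its expression filter. All 6 called genes differed by at least 2-fold. Of these, tetur07g02040 passed the filter through the proterosoma library only, so its call is partly built into the filter and is not read against the shares below. Of the 8 tested genes, 2 lay above all whole-body values, tetur07g02040 being 1 of them, and 5 lay below. Over all tested genes these shares were 46.9% and 47.5%, and tetur07g02040 is not read against them. Of all tested genes, 41.0% were called higher and 40.4% lower, and 31.6% and 30.0% were called with at least a 2-fold difference, so calls in both directions are common in this comparison. The median log2 fold was -1.82 over the 8 tested genes and -0.03 over all tested genes. The median of the 8 includes tetur07g02040, describes the genes that had enough reads and was not tested. It is not read against the median of all tested genes. In bulk RNA, fewer cells of a type and less RNA per cell cannot be told apart.

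**Figure D1:**
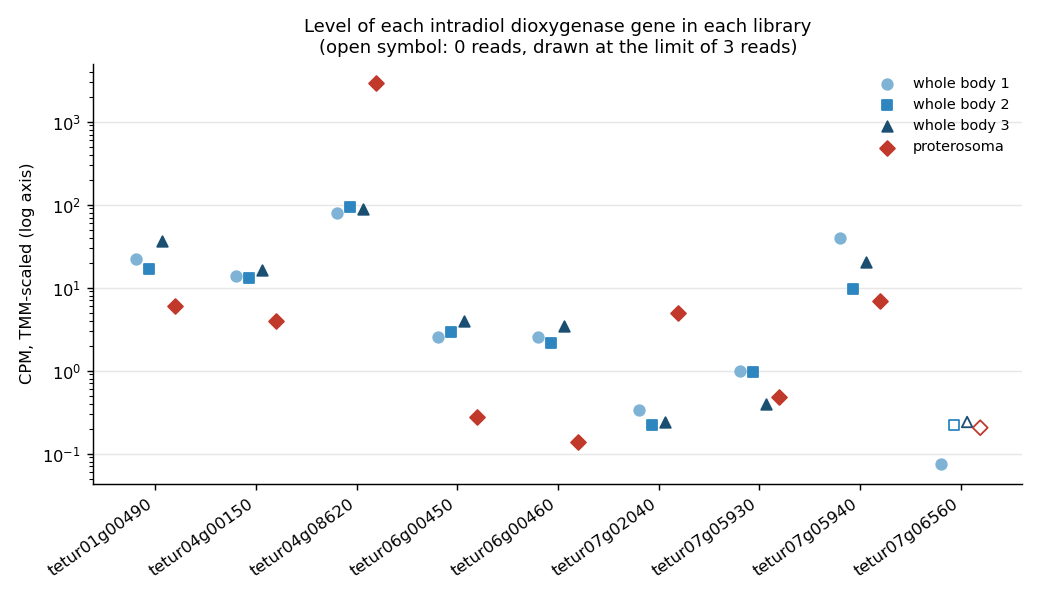
Level of each of the 9 genes in each library, in TMM-scaled CPM on a log axis. Blue symbols are the 3 whole-body libraries and the red diamond is the proterosoma library; open symbols had 0 reads and are drawn at the level that 3 reads would give. The proterosoma value of tetur04g08620, at 2939 CPM, lies far above its whole-body values. That of tetur06g00460, at 0.137 CPM, lies far below its own but rests on 2 reads, under the level of 3 reads.

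The gene tetur04g08620 rose most. It had 2140, 1268 and 1104 reads in whole-body replicates 1, 2 and 3 and 42979 reads in the proterosoma library. These counts gave 79.2, 93.5 and 88.5 CPM in whole bodies and 2939 CPM in the proterosoma. The whole-body libraries lay close together, with a mean of 87.1 ± 7.22 CPM (SD, n = 3), and the proterosoma value was 31.4 to 37.1 times each of them. The log2 fold was 5.08 ± 0.14 (SE; edgeR adjusted p = 1.43e-06), which is 33.8-fold over the whole-body mean, with a 95% interval of 26.6 to 42.9. Among the 13278 tested genes, 2.97% had a higher fold, which put this gene at place 395. It alone took 0.219% of all proterosoma reads and 0.0096% ± 0.000614 (SD, n = 3) of whole-body reads.

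The gene tetur07g02040 also rose, at a far lower read number. It had 9, 3 and 3 reads in the whole-body libraries and 72 reads in the proterosoma library. In CPM these were 0.333, 0.221 and 0.240 in whole bodies and 4.92 in the proterosoma. The whole-body values rested on at most 9 reads each, and the proterosoma value was 14.8 to 22.3 times each of them. The log2 fold was 4.10 ± 0.32 (SE; edgeR adjusted p = 5.84e-05). From the summed reads alone, the exact 95% counting interval of the fold was 9.89 to 32.7. None of its whole-body values reached the level that the filter asks for, so its fold is not ranked against those of the tested genes.

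Both genes that rose stand alone in the list, with no other listed gene next to them. The other listed gene on scaffold 4, tetur04g00150, went the opposite way. It had 375, 177 and 202 reads in whole bodies and 58 in the proterosoma, or 13.9, 13.05 and 16.2 CPM against 3.97 CPM. The whole-body values were 3.29 to 4.08 times the proterosoma value and did not overlap it. The log2 fold was -1.85 ± 0.21 (SE; edgeR adjusted p = 3.00e-04).

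The gene on scaffold 1, tetur01g00490, fell as well, with a wider spread. Its reads were 594, 230 and 455 in whole bodies and 89 in the proterosoma, or 22.0, 17.0 and 36.5 CPM against 6.09 CPM. Every whole-body value was higher than the proterosoma value, by 2.79 to 5.99 times. On the log2 scale its fold was -2.03 ± 0.49 (SE; edgeR adjusted p = 0.00909). Whole-body replicate 3 stood above the others, and without it the log2 fold was -1.71 and the gene was still called. With edgeR's robust estimate of spread the log2 fold was -2.03 ± 0.63 (SE), and the gene passed the threshold only narrowly.

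**Figure D2:**
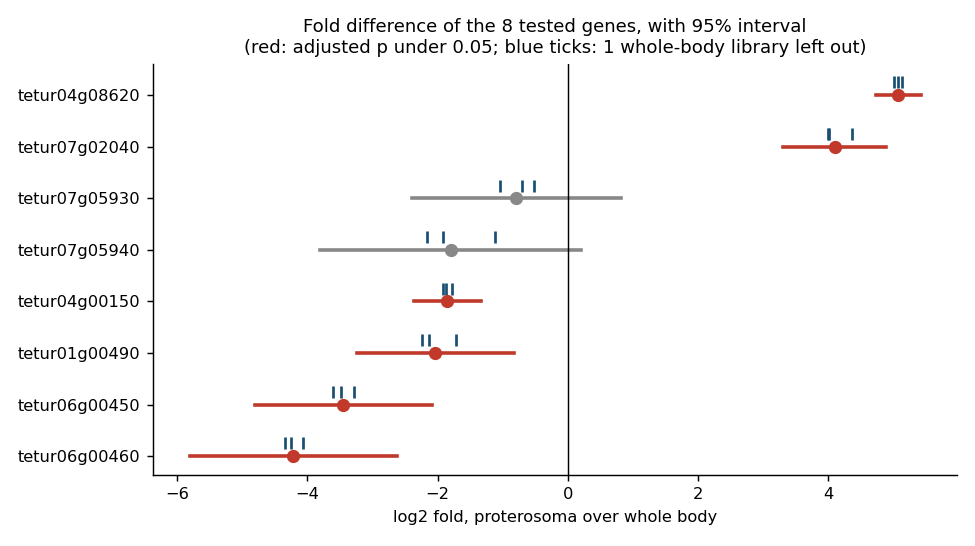
Log2 fold of the 8 tested genes, proterosoma over whole body, with the 95% interval of the edgeR fit. Red marks an adjusted p under 0.05, and blue ticks show the fold with 1 whole-body library left out. The folds run from -4.22 for tetur06g00460 to 5.08 for tetur04g08620, and the grey intervals of tetur07g05930 and tetur07g05940 cross 0.

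The adjacent pair on scaffold 6 was the most depleted from the front body among the 8 tested genes. The first gene, tetur06g00450, had 68, 40 and 49 reads in whole bodies and 4 in the proterosoma. Its level was 2.52, 2.95 and 3.93 CPM in whole bodies and 0.273 CPM in the proterosoma. The second gene, tetur06g00460, had 68, 29 and 43 reads in whole bodies and 2 in the proterosoma. Its level was 2.52, 2.14 and 3.45 CPM in whole bodies and 0.137 CPM in the proterosoma. That proterosoma value is under the limit of 0.205 CPM, the level of 3 reads in this library. For both genes every whole-body value was far above the proterosoma value. The log2 folds were -3.45 ± 0.55 (SE) for tetur06g00450 (edgeR adjusted p = 0.00153) and -4.22 ± 0.65 (SE) for tetur06g00460 (edgeR adjusted p = 0.00126). With so few proterosoma reads, the exact 95% counting interval from summed reads is wide. Whole bodies were 4.14 to 40.2 times the proterosoma for the first gene and 5.24 to 161 times for the second. These intervals overlap and cover counting error only, and whether depletion differed between the 2 genes was not tested.

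The division of reads within the scaffold 6 pair was described for each library and not tested. In whole-body replicate 1 the genes had 68 reads each, and the exact 95% interval of the first gene's share was 41.3 to 58.7%. Its share was 58.0% (45.5 to 69.8%) in replicate 2 and 53.3% (42.6 to 63.7%) in replicate 3. In the proterosoma it took 4 of 6 reads, 66.7%, with an interval of 22.3 to 95.7%, too wide to tell an equal from an unequal division. The sources do not say how reads that map to both genes were counted, and genes of near-identical sequence could share or lose reads. Likeness of sequence within the pair was not examined.

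Neither gene of the adjacent pair on scaffold 7 was called. The gene tetur07g05940 had 1059, 129 and 252 reads in whole bodies and 100 in the proterosoma. In CPM these were 39.2, 9.51 and 20.2 in whole bodies against 6.84 in the proterosoma. The proterosoma value was below all whole-body values, but whole-body replicate 2 exceeded it by only 1.39 times and replicate 1 by 5.74 times. Its log2 fold was -1.79 ± 0.81 (SE), with a 95% interval of -3.80 to 0.21, and it was not called (edgeR adjusted p = 0.0838). The outcome depended on whole-body replicate 2: without it the log2 fold was -2.16 and the gene was called, and without replicate 1 the log2 fold was -1.11. Leaving out replicate 2 also lowered the adjusted p of every listed gene called in the main fit, so that change was not particular to tetur07g05940. Across the alternatives, tetur07g05940 was called only without replicate 2 and with library size alone.

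Its neighbour tetur07g05930 had 27, 13 and 5 reads in whole bodies and 7 in the proterosoma. The levels were 1.00, 0.958 and 0.401 CPM in whole bodies and 0.479 CPM in the proterosoma, which lay inside the whole-body range. Its log2 fold was -0.79 ± 0.65 (SE), with a 95% interval of -2.40 to 0.82 (edgeR adjusted p = 0.299). A difference was not detectable at this depth, and the interval allows whole bodies to be up to 5.26 times higher.

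The division of reads within the scaffold 7 pair is given with intervals that cover counting error only, not the spread between pools. The gene tetur07g05930 took 2.49% and 1.95% of the pair's reads in whole-body replicates 1 and 3, with exact 95% intervals of 1.64 to 3.597% and 0.635 to 4.48%. In replicate 2 it took 9.15% (4.97 to 15.1%), and in the proterosoma 6.54% (2.67 to 13.02%). On counting error alone, the replicate 2 interval lies above those of the other whole-body libraries, and the proterosoma interval overlaps those of all 3 whole-body libraries. With 1 proterosoma library against 3, an exact permutation test of such a share cannot go below p = 0.25, so no test was made.

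**Figure D3:**
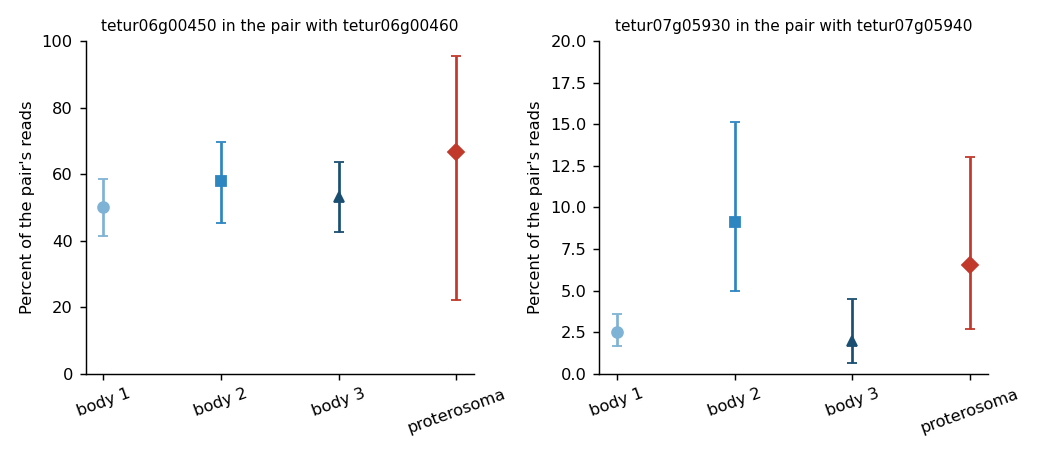
Share of each adjacent pair's reads that fell on its first gene, in percent, by library, with exact 95% binomial intervals. The left axis runs to 100% and the right axis to 20%. On the left, the whole-body shares of tetur06g00450 reach at most 58.0%, and the proterosoma share rests on 6 reads and has a wide interval. On the right, tetur07g05930 takes 9.15% in whole-body replicate 2 and at most 2.49% in the other whole-body libraries.

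The last gene, tetur07g06560, was barely read in adult females. It had 2 reads in whole-body replicate 1 and 0 reads in each of the other libraries, the proterosoma included. All of these are at or under the 3 reads that a count of 0 allows, so no fold is given. Its level was under 0.205 CPM in the proterosoma library and under 0.240 CPM in the shallowest whole-body library.

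Spread among the whole-body pools differed widely from gene to gene. The coefficient of variation over the 3 whole-body libraries was 8.29% for tetur04g08620 and 11.3% for tetur04g00150. It was 40.3% for tetur01g00490 and 65.5% for tetur07g05940, where counting error alone would give 4.93% and 5.72%. The highest whole-body value of tetur07g05940 was 4.12 times the lowest, against 1.18 times for tetur04g08620. For tetur07g02040 the spread of 22.6% was under the 50.6% that counting error alone would give.

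Set against the other whole-body libraries, tetur07g05940 was lower in whole-body replicate 2 by a log2 fold of -1.68 ± 0.28 (SE; edgeR adjusted p = 0.00224). It was the 1 gene called of the 7 listed genes that could be tested between whole bodies. In that comparison 1.32% of 12228 genes were called lower and 0.221% higher, and 6.42% had an unadjusted p under 0.05, as had 2 of the 7. The spread behind this call comes from the remaining pair of libraries and from edgeR's pooling of spread over all genes. How much each contributed was not tested. The DESeq2 Wald test called 0 of the 7 listed genes there, with 2 at an unadjusted p under 0.05, against 0.687% and 2.47% of all genes. For tetur01g00490 the log2 fold of replicate 2 was -0.76 ± 0.22 (SE), which was not called (edgeR adjusted p = 0.130). With whole-body replicate 1 or 3 set against the others, edgeR and DESeq2 each called 0 of the 7, with 1 at an unadjusted p under 0.05 in each of these tests. Of all genes, edgeR called 0.00% for replicate 1 and 0.00818% for replicate 3, with 1.95% and 8.95% at an unadjusted p under 0.05, and DESeq2 called 0.00% and 0.221%, with 0.450% and 2.26%.

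Taken as a sum, reads of the 9 genes were dominated by 1 gene in the front body and more evenly divided in the whole. The sum was 161, 139 and 169 CPM in whole-body replicates 1, 2 and 3 and 2961 CPM in the proterosoma library. The gene tetur04g08620 took 49.3%, 67.1% and 52.2% of that sum in the whole-body libraries, with Wilson 95% intervals of 47.8 to 50.8%, 64.97 to 69.2% and 50.1 to 54.4%. It took 99.2% of it in the proterosoma library, with an interval of 99.1 to 99.3%. Without it, the sum of the other 8 genes was 81.5, 45.8 and 80.9 CPM in whole bodies and 22.7 CPM in the proterosoma. The summed level of the 9 genes was thus 18.9 times higher in the proterosoma library, while that of the 8 was 3.06 times lower. These are divisions of reads, not corrected for gene length. The intervals of the shares cover counting error only. On counting error alone, the replicate 2 interval lies above those of replicates 1 and 3, which overlap each other.

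**Figure D4:**
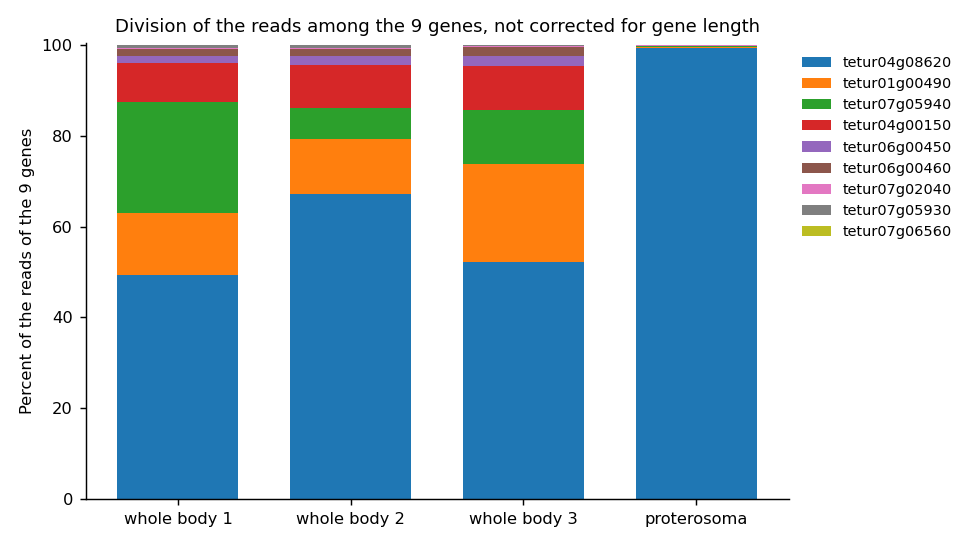
Division of the reads of the 9 genes among them, in percent of their sum in each library, not corrected for gene length. In the proterosoma bar tetur04g08620 (blue) takes 99.2%; in the whole-body bars it takes 49.3% to 67.1%, and tetur01g00490, tetur07g05940 and tetur04g00150 make up most of the rest.

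The genes on either side of the listed ones did not all move the way of the listed gene. Identifiers were ordered by scaffold and serial number, and no annotation was at hand to check that order. Of the 28 other genes within 2 identifiers of a listed gene, 3 were not tested, 5 were called higher, 15 lower and 5 were not called. The shares over all tested genes, which leave out untested ones, were 41.0% higher and 40.4% lower. Among the 5 called higher, the gene 2 identifiers after tetur07g02040 had 12, 5 and 6 whole-body reads and 87 proterosoma reads. That gene passed the filter through the proterosoma library only. The gene just before tetur04g08620 rose with it, from 3.92 CPM as the whole-body mean to 47.0 CPM (log2 fold 3.61 ± 0.14, SE; edgeR adjusted p = 3.76e-06), while the next identifiers after tetur04g08620 were called lower, with log2 folds of -2.63 and -3.01. The scaffold 6 pair, which fell, lies between genes that rose: the one just before it had a log2 fold of 3.94, and the next tested one after it a log2 fold of 4.89. On scaffold 7, a gene within 2 identifiers after tetur07g05940 had a log2 fold of 5.02 (SE 0.21; edgeR adjusted p = 5.10e-06), while the identifier between them had 0 reads in all libraries. Of 4 neighbours each, 3 were called lower around tetur01g00490, which fell, around tetur04g08620 and tetur07g02040, which rose, and around tetur07g06560, which was not tested. Whether neighbouring genes overlap and share reads was not tested.

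**Figure D5:**
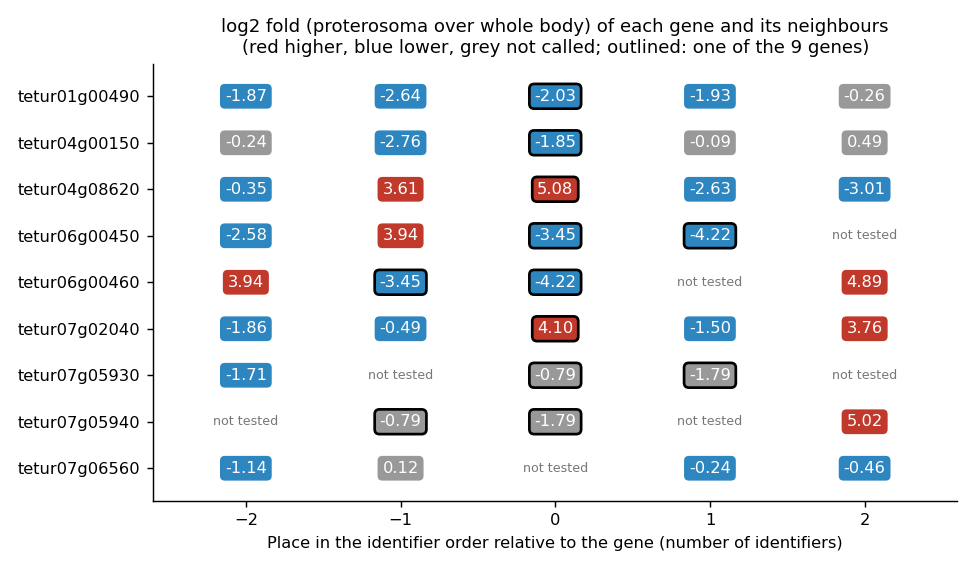
Log2 fold, proterosoma over whole body, of each listed gene (place 0, outlined) and of the genes within 2 identifiers of it; red was called higher, blue lower, and grey was not called. The outlined scaffold 6 genes, at -3.45 and -4.22, stand between red genes at 3.94 and 4.89, and tetur04g08620 at 5.08 has 1 red neighbour at 3.61.

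Likeness of pattern was measured as the root mean square difference of log2(CPM + 0.5) over the 4 libraries, each gene centred on its own mean. For tetur04g08620, the nearest of 275 genes with a mean level within 2-fold were tetur18g01310 (0.0962 log2 units) and tetur08g06120 (0.100 log2 units). The gene tetur18g01310 had 79.9, 80.8 and 90.4 CPM in whole bodies and 2917 CPM in the proterosoma. For tetur06g00460, the nearest of 2153 genes were tetur02g04000 (0.0378 log2 units) and tetur06g06668 (0.0595 log2 units). The gene tetur02g04000 had 3.85, 3.39 and 5.53 CPM in whole bodies and 0.479 CPM in the proterosoma. The added 0.5 CPM exceeds the proterosoma values of tetur06g00460 and tetur02g04000, so a small distance there leaves room for unlike folds: the log2 folds were -4.22 for tetur06g00460, -3.12 for tetur02g04000 and -3.65 for tetur06g06668.

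In the authors' deposited table, which covers 15877 genes, the same 2 of these genes were higher in the proterosoma and the same 4 lower at an adjusted p under 0.05. In the authors' deposited table the log2 fold was 5.06 ± 0.16 for tetur04g08620 and 3.98 ± 0.78 for tetur07g02040, with the authors' errors. For the scaffold 6 pair the authors' deposited table has -3.34 ± 0.83 for tetur06g00450 and -3.97 ± 1.00 for tetur06g00460. For tetur07g05940 it was -1.63 ± 1.01 in the authors' deposited table, with an adjusted p of 0.155, also not past the threshold.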

How the data were processed

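Per the labels, libraries were strand-specific. The authors deposited raw read counts per gene, and the submitters' processing notes name DESeq2 1.6.3, HTSeq 0.6.0 and STAR 2.5.0b. Not given in the sources used here are genome build, annotation, strand setting and treatment of multiply mapped reads. The authors' deposited comparison has DESeq2 column names, per the file headers: a mean normalised signal, log2 folds and their errors, a test score and p-values. Its direction, not in the header, was read from the counts: 100% of 9842 genes with an absolute log2 fold of at least 1 had the sign of proterosoma over whole body. Unused sample columns numbered 0.

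Counts were fitted with edgeR 4.0.16 in R 4.3.3 (quasi-likelihood test, TMM, filterByExpr by group, body part as the only term), with 2 residual and 3.82 prior degrees of freedom. The spread came from whole bodies, so the fit assumes that the single proterosoma library varies like them, and its values have no replicate check. Standard errors are the fold divided by the root of its F statistic. Whole-body libraries differed beyond counting noise, with a chi-square per degree of freedom of 14.7 to 26.4 for their pairs, so none was counted as a repeat deposit; this does not show that the RNA came from separate cultures. The scripts were tested on simulated data. Alternatives were other scalings, filters and tests (DESeq2 1.42.0, limma-voom 3.58.1), a stricter threshold and leaving out each whole-body library. All 9 genes are named; the rule adds the 2 nearest patterns for the genes with the highest and the lowest fold. The genes, lists and rules were chosen with earlier results of these data known. Other intradiol dioxygenases and tissue markers, listed for use only where annotated, were not analysed here.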

Additional observations from a re-analysis of the deposited data

How the results depend on the processing

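Of 84 log2 folds recomputed under alternatives, 82 stayed on the same side of 0 and of the threshold, and 0 reversed. The exceptions were both of tetur07g05940, called with library size alone (log2 fold -2.38, edgeR adjusted p = 0.0311) and without whole-body replicate 2; leaving out each whole-body library gave it -2.16 to -1.11. Library size alone moved the log2 fold of all genes by a median of -0.57, and the move of tetur07g05940 followed from that shift; the cause of its dependence on replicate 2 was not tested. Leaving out libraries kept the count of higher genes at 2 and gave 4 to 5 lower genes. With a mean count of at least 50, 1 gene was called higher and 2 lower, because fewer of the genes were tested. Of the listed genes that differed in whole-body replicate 2, 1 with edgeR became 0 with the DESeq2 Wald test and 2 with library size alone, alternatives chosen after seeing the data. No paired analysis was possible because the labels number only the whole-body replicates. Depth limits tetur06g00450, tetur06g00460, tetur07g05930 and tetur07g06560, with at most 7 proterosoma reads each.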
